A study of Pimephales promelas with 270 samples.

Results

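The 200 transcripts described here varied most between libraries of unexposed fathead minnow larvae (Pimephales promelas, a North American freshwater fish much used in tests of water quality). They were chosen by their spread in the control libraries. In each of the 9 control groups the standard deviation (SD) was taken of log2(CPM + 1), where CPM is a transcript's count divided by its library's total, on a fixed scale, and the median of the 9 SDs was the score. The 200 highest scores were kept among the 17798 transcripts with a mean of at least 5 CPM over the controls, out of 34856 transcripts in all. The controls' spread is therefore a description and was not tested, and the libraries from propranolol were not used in the choice.

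Larvae aged 4, 5 or 6 days post fertilization spent 6, 24 or 48 h as controls, in 0.66 mg/l propranolol (the low dose) or in 3.3 mg/l propranolol (the high dose). Each of the 9 combinations of age and duration is called a set. The 27 groups held 10 libraries each, except for 9 in both propranolol groups of the 6-day, 24 h set and 8 in 6-day controls after 48 h, giving 88 control, 89 low-dose and 89 high-dose libraries. The larvae carry no allele or transgene in the labels, and no strain is given. The labels do not state whether a library is 1 larva or several, nor which libraries shared a vessel, and therefore the spread and the p-values below are those between these libraries and may be partly technical. The treatment text of the samples names ethinyl estradiol, whereas the series' title, its design and the dose labels name propranolol; the propranolol labels were used.

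Transcript levels in whole larvae sum over all tissues, so a difference between libraries can lie in the number of cells of a type or in the RNA per cell, and these cannot be told apart. A transcript's spread between individuals is a property apart from its mean, since transcripts of equal mean level can be near constant or can differ manyfold between siblings. Propranolol blocks beta-adrenergic receptors, through which adrenaline and noradrenaline act on heart, vessels and metabolism, and in fish larvae it is best known for its effect on the heart. The transcripts carry bare identifiers that the files do not pair with gene names, and the RefSeq gene table holds 0 of them, so neither roles of the members nor markers of the tissues can be given.

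Libraries held 5.37 to 31.0 M counts, and the median library 14.3 M. In 17 libraries, of which 8 were controls, 3 low-dose and 6 high-dose, the root mean square deviation from the group was more than 1.5 times the group's median; these are called far libraries below. Without them the same rule kept 175 of the 200 members. In a control group the highest value of a member came from any given library for a median of 20 members (range 6 to 44 over the 88 control libraries). A middle count near 20 follows from 200 members and groups of 8 to 10 libraries. Counts of extremes do not measure how much of the spread a library carried. The 8 far control libraries held the lowest value of their group for a median of 39 members each (20 to 55), and the other 80 control libraries for a median of 17 (6 to 38).

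Member scores ranged from 0.768 to 2.50 with a median of 0.997 on the log2 scale, against a median of 0.228 for the 17598 other transcripts that passed the level minimum. An SD of 1 corresponds to libraries lying typically about 2-fold from the group's mean. The members just inside the list were FMt027214, FMt005058 and FMt025188, with scores of 0.772, 0.768 and 0.768, and the transcripts just outside were FMt003358, FMt032143 and FMt045317, with 0.760, 0.759 and 0.758, so the list ends within a continuous range. The members were not abundant as a rule. Their mean levels over controls ran from 5.10 to 1931 CPM with a median of 13.4 CPM; 86 lay under 10 CPM and 26 above 100 CPM. As a description of the values that chose them, the score was a median of 9.78 times the SD that counting alone would give at the member's level, and the lowest such ratio was 5.30. The members' control means had a median range over the 9 control groups of 1.74 log2 units, against 0.58 for the others; a wider range follows in part from the choice, since means of transcripts with a larger SD also scatter more.

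The member of highest score was FMt037634, with 2.50. In 4-day controls after 6 h it ran from 0.553 through a median of 23.7 to 61.1 CPM, and in 6-day controls after 48 h from 9.97 through 1540 to 6720 CPM. Libraries of the same age and duration thus lay far apart, and the median was higher in the oldest set. FMt005729 (score 2.16) ran from 1.06 through 66.8 to 269 CPM in 5-day controls after 24 h and from 4.71 through 328 to 730 CPM in 5-day controls after 48 h. FMt045504 (2.16) ran from 0.895 through 8.39 to 154 CPM in 5-day controls after 24 h and from 0.896 through 107 to 198 CPM in 6-day controls after 6 h. In each of these groups the lowest library lay near 5 CPM or below, while the highest exceeded 100 CPM. FMt043989 (2.09) ran from 0.498 through 1.60 to 90.3 CPM in 6-day controls after 24 h and from 1.75 through 53.8 to 128 CPM in 5-day controls after 48 h. FMt037604 (2.02) ran from 0.749 through 136 to 646 CPM in 6-day controls after 48 h.

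The members were also the variable transcripts in larvae that the choice had not used. Their median SD was 0.976 in the low-dose groups and 0.972 in the high-dose groups, beside 0.997 in the controls that chose them, and the medians of the other transcripts were 0.224, 0.227 and 0.228. When the rule was applied to the low-dose libraries alone, 157 of its 200 transcripts were members, and 153 of 200 were when it was applied to the high-dose libraries alone. The lists of the low-dose and high-dose libraries shared 154 transcripts with each other, of which 136 were members. A few members did not keep their rank. The lowest rank of a member was 2332 of 17798 in the low dose and 4330 of 17798 in the high dose. Since the members were picked for high values in the controls, their values elsewhere tend to be lower from that choice alone, and the 0.02 to 0.03 gap between medians is not read as an effect of propranolol.

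**Figure D1:**
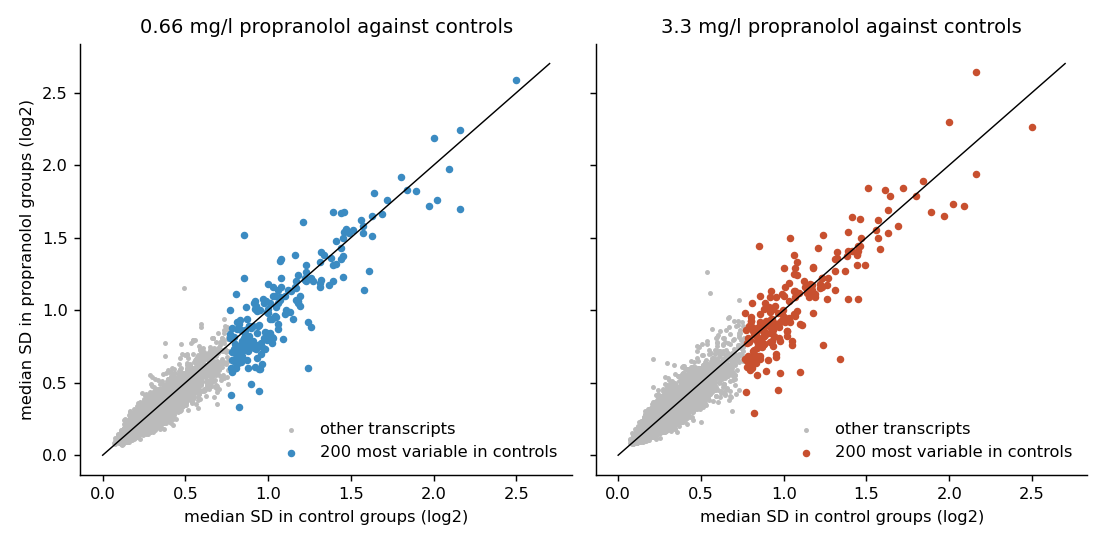
Median SD of log2(CPM + 1) in the 9 low-dose groups (left) and in the 9 high-dose groups (right) against the median SD in the 9 control groups; each point is 1 of 17798 transcripts, the 200 members are coloured, and the line marks equal values. Most members lie along the line in libraries that were not used to choose them, with medians of 0.976 and 0.972, beside 0.997 in controls.

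Part of the spread came as distinct levels. A member was counted as showing 2 levels in a group when the sorted values of log2(CPM + 1) held a gap of at least 2 with at least 2 libraries on each side. By this count 30 members showed 2 levels in at least 3 of the 9 control groups, 36 in at least 3 low-dose groups and 37 in at least 3 high-dose groups, and 20 did so at all 3 doses. Of the 17598 other transcripts, 3, 1 and 0 did. Since a gap of this size needs a large SD, the excess among members is a consequence of the choice in the controls, and the counts in the propranolol groups are the same measure in other libraries.

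FMt039924 (score 1.84) showed 2 levels in 9 of 9 control, 9 of 9 low-dose and 9 of 9 high-dose groups. Over all 266 libraries no value fell between 18.2 and 46.3 CPM. Above the gap lay 42 of 88 control libraries, 42 of 89 low-dose libraries and 49 of 89 high-dose libraries, with medians of 85.8, 79.1 and 87.1 CPM, and below it the medians were 6.49, 6.75 and 6.95 CPM. The 2 levels hardly differed between doses, and each of the 27 groups had 2 to 8 libraries on the upper one. In the 4-day, 6 h set the libraries ran from 3.90 to 98.8 CPM in controls, from 2.32 to 98.0 CPM at the low dose and from 4.07 to 119 CPM at the high dose, so the 2 levels were present at the youngest age as well. FMt026455 (1.37) showed 2 levels in 9 of 9 control groups, which chose it for mention, but in 4 of 9 low-dose and 5 of 9 high-dose groups. It had an empty range between 5.55 and 15.2 CPM. Above it lay 27 of 88 control libraries, 18 of 89 low-dose libraries and 21 of 89 high-dose libraries, with medians of 24.0, 23.7 and 24.3 CPM, while the rest had medians of no more than 2.35 CPM. The upper level of this transcript was held by the minority of libraries at every dose. FMt037634 showed 2 levels in 7 of 9 control, 7 of 9 low-dose and 4 of 9 high-dose groups. It lay at or below 9.97 CPM in 22 of 88 control, 17 of 89 low-dose and 18 of 89 high-dose libraries, with medians there of 2.46, 2.29 and 1.92 CPM, against 350, 414 and 507 CPM in the other libraries. Unlike FMt039924, its upper level shifted with age, and the top of its low group, at 9.97 CPM, was a 6-day control after 48 h. The pooled gap, between 9.97 and 14.7 CPM, is narrow. FMt044216 and FMt028371 were under 1 CPM in most libraries of every dose, with 73.9% and 67.0% of control, 76.4% and 65.2% of low-dose and 77.5% and 64.0% of high-dose libraries; they were picked for mention after their values were seen.

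**Figure D2:**
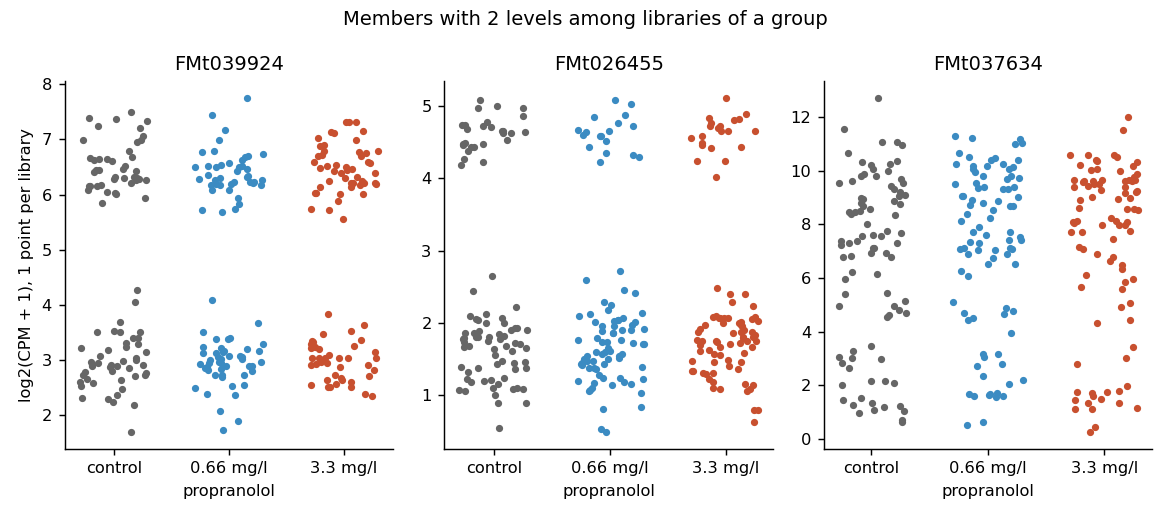
Level of 3 members in every library, as log2(CPM + 1), by propranolol dose; each point is 1 library and the horizontal scatter within a dose carries no value. FMt039924 and FMt026455 leave an empty band that no library of any dose enters (18.2 to 46.3 CPM and 5.55 to 15.2 CPM), and FMt037634 has a low group in each dose, below a narrower gap (9.97 to 14.7 CPM).

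To see which members varied together, each library's deviation from its group's mean was taken. This removes differences between group means. Any difference of stage within a group remains, and groups of wider spread weigh more in the correlations. Members were clustered on the Pearson correlation of these deviations over the 88 control libraries (average linkage, cut at 1 - r of 0.5). Most members varied on their own or with a few others. Clusters of 5 or more members, called modules A to F here, held 41 members, 34 smaller clusters of 2 to 4 held 78, and 81 members joined none. Of the 19900 pairs of members, 223 had r above 0.5 in controls, and 177 of these were also above 0.5 in the low-dose libraries, 174 in the high-dose libraries and 170 in both. The median r over all pairs in controls was 0.02. All such correlations are across libraries of the same groups and share depth and scaling, and no p is attached. Library depth was not correlated with the deviation of any member beyond 0.29 in size in controls.

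Module A was the largest, with 13 members, a median pairwise r of 0.80 in controls, 0.78 at the low dose and 0.84 at the high dose, and the greatest abundance (median of the members' mean levels 227 CPM in controls). Its hub, the member with the highest mean correlation with the rest, was FMt017914, which ran from 33.2 through 333 to 851 CPM in 5-day controls after 48 h and from 582 through 788 to 995 CPM in 6-day controls after 48 h. Among the 5-day libraries 2 are far libraries, and without them the hub ran from 194 through 338 to 851 CPM there, a range still wider than in the oldest larvae. The module's mean level over its members, in log2(CPM + 1), was 1.39 ± 0.30 in 4-day controls after 6 h, 7.37 ± 1.65 in 5-day controls after 48 h (SD, n = 10 each) and 9.16 ± 0.21 in 6-day controls after 48 h (SD, n = 8). Without the 2 far libraries the 5-day value was 8.11 ± 0.55 (SD, n = 8), so those libraries carried most of its SD. An age index was taken for each library from 500 non-members that rose most with age and 500 that fell most in the propranolol groups. Module A's deviations correlated with that index at r = 0.53 in controls (0.66 without the far libraries), 0.67 at the low dose and 0.87 at the high dose; whether developmental stage sets the module's spread was not tested. In controls without the far libraries its median pairwise r was 0.67. In 4 propranolol libraries the module's level lay more than 2 log2 units outside the rest of the group. These were high-dose library 34 of the 4-day, 24 h set (7.26, against 2.20 to 4.79 in the others), low-dose library 25 of the 5-day, 48 h set (5.41, against 7.50 to 8.66), high-dose library 37 of the 6-day, 6 h set (4.14, against 7.16 to 9.06) and high-dose library 37 of the 6-day, 48 h set (6.38, against 8.69 to 9.49). Libraries that lay apart together were not counted. Such were the 2 far libraries of 5-day controls after 48 h, at 4.555 and 4.211, where the lowest of the others was at 7.118.

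Module C had 5 members, of which FMt030097, FMt030098, FMt030099 and the hub FMt030100 carry consecutive numbers, with a median r of 0.97 in controls, 0.94 at the low dose and 0.96 at the high dose. The hub ran from 3.89 through 53.6 to 118 CPM in 5-day controls after 48 h. Modules A and C moved in opposite directions with age but their deviations in controls correlated at r = 0.48; without the far libraries this was 0.03, and it was 0.06 at the low dose and -0.21 at the high dose, so the link between them rested on the far libraries. The fifth member, FMt015668, was tied to the rest only in controls, since the lowest r within the module was 0.58 in controls, 0.24 at the low dose and -0.02 at the high dose. Whether its tie in controls also rested on the far libraries was not tested.

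Module F held the widest swings. Its 5 members are FMt037603 and the hub FMt037604, with neighbouring numbers, and FMt037634, FMt037635 and FMt037640, a separate run of near numbers. They had a median r of 0.94 in controls, 0.93 at the low dose and 0.93 at the high dose. A library's mean deviation over the 5 ran from -5.29 to 2.55 log2 units in controls, and the SD of that deviation was 1.98, against 0.90 for module A. In 5-day controls after 24 h the module's level ran from 0.73 through a median of 4.72 to 6.30. A few libraries in most groups thus lacked nearly all of the module's signal while the others carried it at the level of their age.

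Module B (8 members, hub FMt022462, median r 0.80 in controls, 0.79 at the low dose and 0.76 at the high dose) was raised in a minority of libraries, and FMt022462 ran from 0.285 through 1.13 to 89.8 CPM in 4-day controls after 6 h. Module E (5 members, hub FMt035743) had a median r of 0.84 in controls, 0.84 at the low dose and 0.92 at the high dose, although none of its members has a number near another's. FMt035743 ran from 2.94 through 6.67 to 10.3 CPM in 5-day controls after 6 h. Module D (5 members, hub FMt044498) was the loosest, with a median r of 0.56 in controls, 0.41 at the low dose and 0.37 at the high dose. FMt044498 ran from 0.316 through 2.10 to 23.5 CPM in 5-day controls after 6 h. Apart from the A and C pair, r between the modules' mean deviations lay between -0.22 and 0.23 in controls and between -0.20 and 0.19 at the low dose. At the high dose some pairs were further from 0, with r of -0.41 for C and E, 0.36 for A and B and -0.31 for D and F, and the difference between doses was not tested. Clustered on their own, the low-dose libraries gave 4 modules with 31 members and the high-dose libraries 4 modules with 32, of which 31 and 31 were among the 41.

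**Figure D3:**
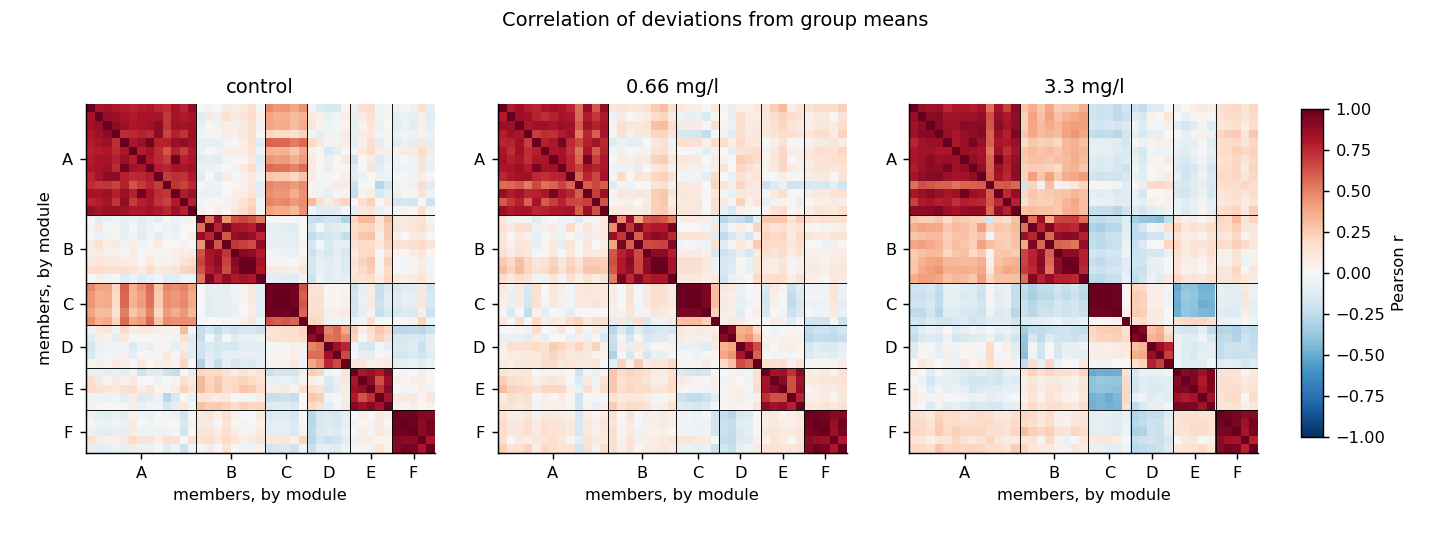
Pearson r between the deviations of the 41 module members from their group means, over 88 control, 89 low-dose and 89 high-dose libraries, with members ordered by module and black lines between modules. Most pairs within the blocks of controls are also high at both doses; module D is paler there, FMt015668 of module C is near 0 with its block at the high dose, and the A and C block is seen in controls only.

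Members with near identifiers mostly varied together. Such pairs were still a minority of the correlated ones, 29 of the 223 with r above 0.5 in controls. Numbers within 5 of each other joined 56 members into 25 runs, and the 37 pairs of such neighbours had a median r of 0.89 in controls, 0.87 at the low dose and 0.88 at the high dose; 29 of the 37 had r above 0.5 in controls. What near numbers mean is not given in the sources used here, and transcripts of 1 gene or near-identical copies can share reads, so such members are not independent. Some pairs moved against each other. Of all pairs, 15 had r below -0.5 in controls. The most opposed were FMt020811 and FMt020768 at -0.76 in controls, -0.67 at the low dose and -0.61 at the high dose, followed by FMt023130 and FMt023126 at -0.70, -0.65 and -0.72 and by FMt028371 and FMt028372 at -0.66, -0.70 and -0.73. The last 2 of these pairs have near numbers and were the only such pairs among the 15. FMt020811 was under 1 CPM in 41 of 88 control, 41 of 89 low-dose and 38 of 89 high-dose libraries. In those libraries FMt020768 had medians of 28.3, 27.8 and 31.3 CPM, against 9.68, 16.0 and 18.9 CPM where FMt020811 reached 1 CPM. For FMt023126 such a split was not seen at every dose, with medians of 22.2, 27 and 21.4 CPM where FMt023130 was under 1 CPM, against 18.1, 16.9 and 23.3 CPM elsewhere, so at the high dose the order was the other way. FMt028372 had medians of 7.16, 8.01 and 10.6 CPM where FMt028371 was under 1 CPM, against 3.72, 3.35 and 4.13 CPM elsewhere. These pairs were picked as the most opposed of all and are descriptions only.

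Age and duration were compared within the propranolol groups, whose libraries were not used to choose the members. The fit's estimate of spread was shared with the control groups. Between 6-day and 4-day larvae, 116 of the 200 members differed, 76 higher and 40 lower at 6 days (58.0%, against 64.0% of the 34000 transcripts tested; edgeR quasi-likelihood test, false discovery rate 0.05). Exposures of 48 h differed from those of 6 h in 82 members, with 56 higher and 26 lower after the longer one (41.0%, against 51.1% of all). At a given starting age, larvae were also older at sampling after 48 h than after 6 h. Duration and development therefore cannot be told apart in this comparison. In unexposed 4-day controls, module A had mean levels of 1.39, 3.05 and 5.85 after 6, 24 and 48 h. The members' median absolute log2 difference was 0.54 with age and 0.38 with duration, against 0.24 and 0.17 over all transcripts, and the median standard error was 0.22 and 0.21, against 0.07 and 0.07. In module A 13 of 13 members were higher at 6 days and 13 of 13 after 48 h, with median log2 differences of 5.40 and 3.92. In module C 4 of 5 were lower in both comparisons, with median differences of -3.55 and -2.67 over the module, and in module F 5 of 5 were higher at 6 days and 4 of 5 after 48 h. In module E 5 of 5 were higher at 6 days, but with duration 1 rose, 1 fell and the other 3 did not pass. In module D 3 rose and 2 fell with age, and 3 of 5 rose with duration. By contrast, 0 of the 8 members of module B passed in either comparison (edgeR, smallest adjusted p = 0.055 with age and 0.051 with duration).

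The largest rise with age and with duration was that of FMt025185, a member of module A. At the high dose it ran from 5.35 through 422 to 584 CPM in the 6-day, 6 h set, against 0 through 0.115 to 0.314 CPM in the 4-day, 6 h set, and at the low dose from 154 through 294 to 461 CPM, against 0 through 0.0803 to 0.278 CPM. The ages did not overlap at either dose. Its log2 difference was 6.65 ± 0.26 with age (SE, edgeR adjusted p = 1.7e-68) and 5.21 ± 0.25 with duration (SE, edgeR adjusted p = 1.5e-53). FMt020134, also of module A, ran from 23.5 through 202 to 335 CPM in the 6-day, 48 h set at the high dose, against 6.65 through 19.0 to 74.7 CPM in the 4-day, 48 h set. It rose by 6.13 ± 0.28 with age (SE, edgeR adjusted p = 5.2e-57) and by 4.70 ± 0.28 with duration (SE, edgeR adjusted p = 1.6e-41).

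The largest falls with age were in module C. FMt030097 ran from 0.160 through 1.48 to 4.82 CPM in the 6-day, 48 h set at the high dose, against 19.5 through 93.6 to 171 CPM in the 4-day, 48 h set, and at the low dose from 0.298 through 3.58 to 10.6 CPM, against 28.0 through 98.6 to 212 CPM. The ages again did not overlap. Its log2 difference with age was -3.63 ± 0.18 (SE, edgeR adjusted p = 8.5e-53). FMt030098, which ran from 0.284 through 3.41 to 11.6 CPM in the 6-day, 48 h set at the low dose, against 40.3 through 135 to 252 CPM in the 4-day, 48 h set, differed by -3.55 ± 0.19 (SE, edgeR adjusted p = 2.0e-48). The largest fall with duration was that of FMt025853, whose log2 difference was -3.52 ± 0.35 (SE, edgeR adjusted p = 2.6e-19). FMt025850 came next with -2.88 ± 0.27 (SE, edgeR adjusted p = 5.1e-21).

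**Figure D4:**
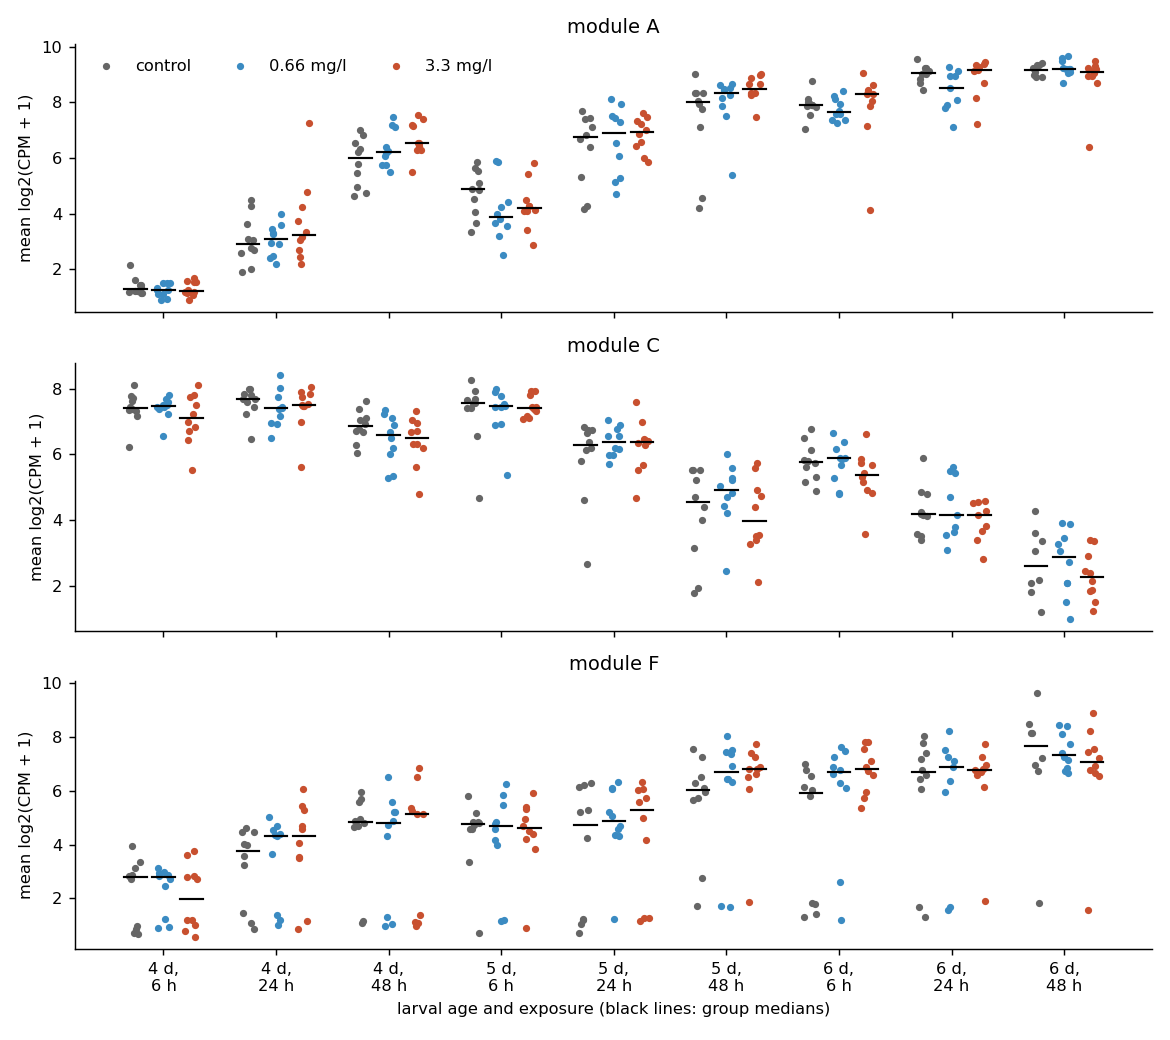
Mean log2(CPM + 1) over the members of modules A, C and F in every library, by set (larval age and exposure) and dose; points are libraries and black lines are group medians. Module A rises and module C falls from the youngest to the oldest sets, and in module F most groups hold a few libraries near the floor.

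Few members passed the threshold in the comparisons of doses. The fit estimated spread from all 27 groups, controls included. The comparison of high with low dose itself took no level from a control library. In it 12 of 200 members differed as the mean of the 9 sets, 8 higher and 4 lower at the high dose, or 6.00%, against 8.79% of all 34000 transcripts (edgeR, false discovery rate 0.05). For high dose against control 6 members differed, 2 higher and 4 lower, or 3% of them, against 6.57% of all. For low dose against control 0 of 200 differed (edgeR; 4 at an unadjusted p below 0.05, 0 by limma-voom, and 0 of the 187 members that DESeq2 gave an adjusted p), against 0.276% of all. These shares were not tested against the background. The members' median absolute log2 difference was 0.17 for high minus low, 0.14 for high minus control and 0.09 for low minus control, against 0.06, 0.06 and 0.05 over all transcripts, and their median standard error was 0.17 in each, against 0.06. With a larger standard error a difference of a given size is harder to detect. The low counts therefore do not show that dose left the other members unaltered. The comparisons with controls share their control libraries, and the rule chose members by the spread and mean level of those same libraries. A high control library favours both a member's choice and a lower value against controls. The differences from controls below are therefore not independent of the choice. Those between high and low dose take no level from the control libraries. Their standard errors and p-values still rest in part on the controls' spread, by which the members were chosen.

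By duration, 0 members differed between high dose and control at 6 h (edgeR; 13 at an unadjusted p below 0.05, 0 by limma-voom, and 0 of the 51 members that DESeq2 gave an adjusted p; 0.0235% of all transcripts), 2 at 24 h (1.12% of all) and 7 at 48 h, 4 higher and 3 lower (8.35% of all). For low dose against control the counts were 0 at 6 h (13 at an unadjusted p below 0.05; 0% of all), 1 at 24 h (0.297% of all) and 0 at 48 h (4 at an unadjusted p below 0.05; 0.0176% of all); limma-voom and DESeq2 gave 0 at 6 h and 48 h as well.

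The member that dose altered most was FMt029894 (no module). After 48 h it ran from 8.29 through 66.6 to 93.9 CPM at the high dose and from 3.03 through 4.86 to 34.3 CPM at the low dose, against 1.41 through 5.80 to 21.2 CPM in controls, in 4-day larvae. In 5-day larvae it ran from 11.4 through 43.8 to 116 CPM at the high dose and from 1.80 through 4.15 to 18.1 CPM at the low dose, against 2.56 through 9.55 to 66.3 CPM in controls. In 6-day larvae it ran from 18.1 through 31.8 to 75.7 CPM at the high dose and from 1.19 through 2.26 to 21.7 CPM at the low dose, against 0.692 through 1.42 to 27.4 CPM in controls. The high-dose libraries lay mostly above the others at each age, with some overlap that came from the upper control and low-dose libraries. In 6-day larvae after 6 h it ran from 0.943 through 2.02 to 3.14 CPM at the high dose, against 0.813 through 1.46 to 3.17 CPM in controls, and those groups overlapped throughout.

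As the mean of the 9 sets FMt029894 rose by 1.22 ± 0.19 log2 units at the high dose against controls (SE, edgeR adjusted p = 9.3e-08, positive in 8 of 9 sets) and by 1.53 ± 0.19 against the low dose (SE, edgeR adjusted p = 3.3e-11, 8 of 9 sets). Against controls the difference was 0.08 ± 0.35 at 6 h, 1.23 ± 0.31 at 24 h (edgeR adjusted p = 0.016) and 2.35 ± 0.32 at 48 h (SE, edgeR adjusted p = 8.9e-10, above 0 in 3 of 3 ages). The effect at 48 h exceeded that at 6 h by 2.27 ± 0.47 (SE, edgeR adjusted p = 0.00043), a comparison added after the data were seen. FMt029894 was the 1 member of 200 whose high-dose effect differed between these durations, against 2.87% of all transcripts. At the low dose it differed from controls by -0.31 ± 0.35 at 6 h, -0.06 ± 0.32 at 24 h and -0.57 ± 0.32 at 48 h, none of which passed (edgeR).

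**Figure D5:**
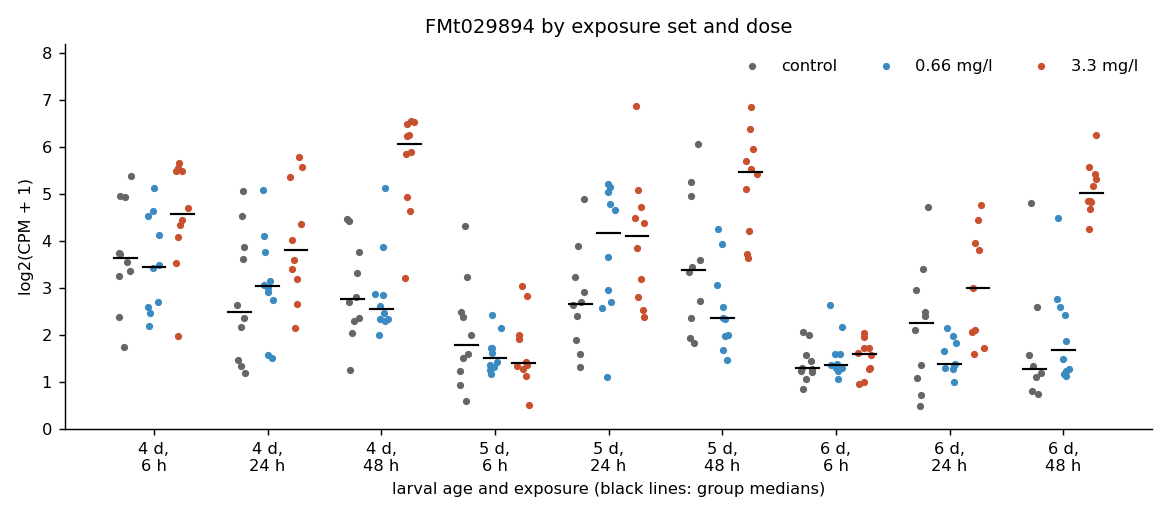
FMt029894 in every library as log2(CPM + 1), by set and dose; points are libraries and black lines are group medians. At 48 h the high-dose medians (66.6, 43.8 and 31.8 CPM at 4, 5 and 6 days) lie above those of controls (5.80, 9.55 and 1.42 CPM) and of the low dose (4.86, 4.15 and 2.26 CPM), with wide spread at each dose.

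The second rise at the high dose was that of FMt040349, by 0.67 ± 0.22 against controls (SE, edgeR adjusted p = 0.042, positive in 7 of 9 sets) and by 0.74 ± 0.22 against the low dose (SE, edgeR adjusted p = 0.015, 8 of 9 sets). In the 6-day, 24 h set it ran from 5.44 through 19.6 to 388 CPM at the high dose and from 7.40 through 9.07 to 135 CPM at the low dose, against 7.83 through 17.1 to 58.3 CPM in controls. There the high-dose median lay close to that of controls and above that of the low dose, and the highest high-dose library exceeded all others. It missed the threshold with limma-voom (0.29 against controls, adjusted p = 0.45; 0.30 against the low dose, adjusted p = 0.38). Without the 6-day, 24 h set it also missed it (0.53, edgeR adjusted p = 0.18, and 0.62, edgeR adjusted p = 0.11). In all it missed the threshold in 8 of 14 alternatives against controls, where the adjusted p ran from 0.0090 to 0.45, and in 4 of 14 against the low dose.

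Over the 9 sets 4 members fell at the high dose against controls and 4 against the low dose, and 3 of the 4 in each came from a run of near numbers, FMt025850, FMt025852 and FMt025853, whose deviations correlated pairwise at r of 0.89 to 0.97 in controls, 0.90 to 0.95 at the low dose and 0.87 to 0.93 at the high dose, so they are close to 1 observation. The levels of FMt025850 and FMt025853 fell steeply with duration, as given above, and FMt025852 and FMt025853 were often near the floor. FMt025852 was under 1 CPM in 54.6% of control, 57.3% of low-dose and 71.9% of high-dose libraries, and FMt025853 in 25%, 20.2% and 33.7%. No library had FMt025850 under 1 CPM. FMt025853 in the 5-day, 48 h set ran from 0.150 through 0.429 to 0.856 CPM at the high dose and from 0.325 through 2.11 to 8.00 CPM at the low dose, against 0.605 through 1.36 to 41.9 CPM in controls. The high-dose group overlapped both others there. FMt025853 fell by 1.08 ± 0.28 against controls (SE, edgeR adjusted p = 0.0051, below 0 in 8 of 9 sets), by 1.81 ± 0.58 at 48 h alone (SE, edgeR adjusted p = 0.031, 3 of 3 ages), and by 1.15 ± 0.28 against the low dose (SE, edgeR adjusted p = 0.0018, 8 of 9 sets). FMt025852 in the 4-day, 24 h set ran from 0.259 through 0.680 to 2.94 CPM at the high dose, against 0.666 through 3.45 to 19.6 CPM at the low dose. It fell by 0.96 ± 0.32 against controls (SE, edgeR adjusted p = 0.044, 8 of 9 sets) and by 1.17 ± 0.29 against the low dose (SE, edgeR adjusted p = 0.0029, 8 of 9 sets). FMt025850 in the 4-day, 48 h set ran from 4.12 through 8.56 to 46.7 CPM at the high dose, against 9.95 through 28.6 to 80.7 CPM in controls, and at 48 h over the 3 ages it fell by 1.19 ± 0.38 (SE, edgeR adjusted p = 0.031, 3 of 3 ages). Over the 9 sets its difference was -0.77 ± 0.21 against controls (SE, edgeR adjusted p = 0.0095, 8 of 9 sets). Against the low dose it was -0.97 ± 0.21 (SE, edgeR adjusted p = 0.00042, 8 of 9 sets). With limma-voom the falls of FMt025853 and FMt025852 against controls over the sets missed the threshold, at -0.76 (adjusted p = 0.24) and -0.87 (adjusted p = 0.24). That of FMt025850 at 48 h also missed it, at -0.90 (adjusted p = 0.23). Alternatives for FMt025850 over the sets are not given here. Without the 5-day, 48 h set FMt025853 was at -0.79 (edgeR adjusted p = 0.11) and FMt025852 at -0.60 (edgeR adjusted p = 0.34). Over the sets against controls FMt025852 missed the threshold in 6 of 14 alternatives and FMt025853 in 2 of 14.

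The remaining fall was that of FMt029506 against controls and of FMt045764 against the low dose, both named after their values were seen. FMt029506 was lower at the high dose than in controls by -0.54 ± 0.17 over the sets (SE, edgeR adjusted p = 0.035, below 0 in 6 of 9 sets) and by -1.0 ± 0.30 at 48 h (SE, edgeR adjusted p = 0.018, 2 of 3 ages). In the 4-day, 48 h set it ran from 15.3 through 20.5 to 29.9 CPM at the high dose, against 16.0 through 24.9 to 209 CPM in controls. The medians there were close, and the highest values were in controls. Over the sets it missed the threshold in 8 of 14 alternatives, among them the fits with limma-voom (-0.34, adjusted p = 0.24) and without far libraries (-0.47, edgeR adjusted p = 0.090). FMt045764 was lower at the high than at the low dose by -0.36 ± 0.12 (SE, edgeR adjusted p = 0.036, 7 of 9 sets). In the 5-day, 6 h set it ran from 2.47 through 4.16 to 8.11 CPM at the high dose, against 3.63 through 8.91 to 27.4 CPM at the low dose, with overlap. It missed the threshold in 7 of 14 alternatives, and without that set its difference was -0.24 (edgeR adjusted p = 0.21).

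At 48 h FMt023507 rose by 1.04 ± 0.32 at the high dose against controls (SE, edgeR adjusted p = 0.022, above 0 in 3 of 3 ages). In the 6-day, 48 h set it ran from 16.3 through 45.5 to 92.0 CPM at the high dose, against 5.13 through 13.2 to 46.4 CPM in controls, with overlap between the groups. Its difference at 48 h was 0.11 ± 0.56 in 4-day, 1.48 ± 0.54 in 5-day and 1.54 ± 0.57 in 6-day larvae (SE). After 6 h it went both ways, with 1.63 ± 0.56 in 5-day and -1.70 ± 0.53 in 6-day larvae (SE). Without the far libraries the 48 h difference was 0.90 (edgeR adjusted p = 0.076). At 24 h FMt037422 was called at both doses, by 1.64 ± 0.36 at the high dose (SE, edgeR adjusted p = 0.0027) and by 1.42 ± 0.36 at the low dose (SE, edgeR adjusted p = 0.046) against the same controls. It ran from 1.5 through 3.17 to 161 CPM at the high dose and from 2.59 through 11.0 to 24.8 CPM at the low dose, against 0.797 through 2.89 to 9.31 CPM in controls, in the 6-day, 24 h set. The high-dose median lay close to that of controls, and 1 library at 161 CPM lay far above the rest. After 6 h in 6-day larvae the differences from controls had the opposite sign and like size, with -2.82 ± 0.61 at the high and -2.44 ± 0.60 at the low dose (SE), beside 2.78 ± 0.66 and 1.86 ± 0.66 in the 6-day, 24 h set. With limma-voom the 24 h rise missed the threshold at both doses (0.74, adjusted p = 0.55, and 1.13, adjusted p = 0.14), and with RLE factors it did at the low dose (1.41, edgeR adjusted p = 0.053). FMt037422 was named because so few members passed at 24 h, after its values were seen.

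No module had all of its members called in a comparison of doses, and modules were not tested as units. In the comparison of high with low dose 3 of the 13 members of module A rose and the other 10 did not pass, while 8.79% of all transcripts passed. The log2 differences were 0.17 to 0.61 over the 13, which vary together, so their values and signs are not independent results. These values leaned on the 4-day, 24 h set, where high-dose library 34 stands apart (7.26, against 2.20 to 4.79 in the others). It was the deepest library of all, at 31.0 M counts, and is not a far library, so the fit without far libraries kept it. In that set the hub differed by 1.78 ± 0.41 (SE). When the set was left out 0 of 13 passed (edgeR), with differences of -0.04 to 0.40, of which 11 were above 0. Over the 14 alternatives 0 to 7 members passed, with 0 also in limma-voom and on leaving out 5-day larvae at 48 h, 6-day larvae at 6 h or 6-day larvae at 24 h. Against controls 0 of 13 passed (edgeR, smallest adjusted p = 0.16), with differences of 0.13 to 0.53 at the high dose, above 0 in 13 of 13, and of -0.22 to 0.14 at the low dose, above 0 in 4 of 13. The module's level moved with the age index, whose part in these values was not tested. In modules B, C, D, E and F 0 members passed in any of the comparisons of doses (edgeR). In module B, whose members vary together, the differences from controls at 6 h were below 0 in 8 of 8 members at both doses, with medians of -0.99 at the high and -0.61 at the low dose (edgeR, smallest adjusted p = 0.42 and 1). At 24 h they were above 0 in 8 of 8 at the low dose (median 0.55) and in 4 of 8 at the high dose (0.01). At 48 h they were above 0 in 5 of 8 (0.05) and in 7 of 8 (0.29). In the 4-day, 6 h set the module's mean level was 3.28 in controls, 1.80 at the low and 1.83 at the high dose. The group medians there lay closer, at 1.683, 1.385 and 1.567.

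Nor was a difference in spread between the doses detected. For each transcript the absolute deviation of log2(CPM + 1) from the group's median was compared between high-dose and low-dose libraries over the 9 sets. The error of that comparison was estimated over all 27 groups, controls included. With limma 0 of 200 members and 0% of the 17798 transcripts differed at a false discovery rate of 0.05; 6 of 200 members and 597 of 17798 transcripts had an unadjusted p below 0.05. When deviations were taken from the group's mean these counts were 21 of 200 and 1183 of 17798, a larger share of the members than of all transcripts, and again 0 members passed the adjustment. With deviations from the median the members' share was not larger. The excess depends on how deviations are taken and is not read as a change of spread. The absolute deviation of a member, averaged over groups, had a median of 0.769 at the high dose and 0.751 at the low dose, beside 0.780 in the controls that chose them, and over all transcripts that passed the level minimum the medians were 0.184, 0.182 and 0.184. The member differences ran from -0.31 to 0.39 with a median of 0.005, and 106 of 200 were above 0. The median standard error of a member's difference was 0.11. Even the largest differences, of -0.31 in FMt043989 and 0.39 in FMt033226, had standard errors of 0.23 and 0.17 and did not pass. Changes of spread well above 0.11 in a single member could therefore be missed with these libraries.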

How the data were processed

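The authors deposited whole-number read counts per transcript for 266 of the 270 labelled libraries; the other 4 are not analysed here. The kit was SENSE mRNA-Seq V2 of Lexogen, per the labels' protocols. Reads were assigned to a set of known transcripts of the species, per the design text of the series. Named in the submitters' processing notes are edgeR 3.26.8, limma 3.40.6 and bcl2fastq 2.19.1. Which aligner and counting rule made the counts, and on which build, is not given in the sources used here.

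Levels are CPM of column sums, and the list rule used log2(CPM + 1). Level tests used edgeR 4.0.16 in R 4.3.3 on the counts: TMM scaling, filterByExpr, 1 model of 27 group means, robust quasi-likelihood F-tests and Benjamini-Hochberg adjustment over all 34000 transcripts tested; SE is the log2 difference divided by the square root of F. Spread was tested with limma 3.58.1 on absolute deviations. Python 3.11.15 did the rest. Alternatives were RLE factors, no filter, limma-voom, DESeq2, leaving out far libraries or a set, and other list, module and gap settings. The level and spread tests were also run on simulated data. Those data held no 2-level transcripts and no differences of age or duration, so they do not show how the tests perform on such members. Members, lists and tests were chosen with earlier results of these data known. Named transcripts were those of highest score, module hubs, the 2 largest rises and falls per comparison (same sign in at least 7 of 9 sets, or 3 of 3 ages), the list's edge and the members with most groups at 2 levels.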

Additional observations from a re-analysis of the deposited data

Results flagged for a closer look

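In 58 groups whose values are given above, the highest or lowest library was compared with the rest by the gap to its nearest neighbour over the group's range of log2(CPM + 1), against Dixon's 95% limit; 11 groups held a library past it. Chance flags about 1 in 20 groups of normally spread values, but these members were chosen for wide spread in controls, some have 2 levels and some vary together, so the number is a description and is not read against that share. Among controls, library 8 of the 6-day, 48 h set was far below the rest for FMt037634 (9.97 CPM) and FMt037604 (0.749 CPM), both of module F, and library 10 of the 6-day, 6 h set was low for FMt045504 (0.896 CPM). For FMt029894 the 6-day, 48 h set held a high library among low-dose larvae (library 28, 21.7 CPM) and another among controls (library 11, 27.4 CPM). FMt040349 was high in low-dose library 26 of the 6-day, 24 h set (135 CPM), FMt037422 in high-dose library 43 of that set (161 CPM), and FMt025853 in control library 8 of the 5-day, 48 h set (41.9 CPM). High-dose library 37 was low for FMt025185 in the 6-day, 6 h set (5.35 CPM), and the library of the same number was low in the 6-day, 48 h set for FMt025185 (123 CPM) and FMt020134 (23.5 CPM); both are far libraries.

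The rise of FMt029894 at the high dose differed between durations. It was larger after 48 h than after 6 h by 2.27 log2 units (edgeR adjusted p = 0.00043), and the difference passed in every alternative fit listed below that gives it.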

How the results depend on the processing

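The list shared 126 transcripts with the 200 chosen at a minimum mean of 1 CPM and 77 with those at 20 CPM; under the other 9 list settings it shared 148 to 196. A gap of 1.5 gave 60 members with 2 levels and a gap of 3 gave 11, against 30. Modules numbered 4 to 6, with 31 to 43 members. Over the 9 sets, high minus control called 2 members with limma-voom, 3 leaving out 4-day larvae at 48 h and 1 leaving out 5-day larvae at 48 h, against 6; high minus low called 3 with limma-voom, 6 leaving out 5-day larvae at 48 h, 7 leaving out 6-day larvae at 24 h and also 7 at 48 h, against 12. At 24 h, high minus control called 1 with limma-voom, 4 with DESeq2 and 4 without far libraries, against 2, and low minus control called 0 with RLE factors and 0 with limma-voom, against 1. The cause of these moves was not tested. No named transcript or count reversed its direction, while 2 of 13 members of module A did for high minus low without the 4-day, 24 h set, and the remaining counts over the 200 stayed within 1.5 times. The alternatives for FMt029506, FMt045764, FMt037422 and module A were chosen after seeing the data. Library numbers are not shared between doses, so no dose comparison was paired. Across sets they are shared, and with the number as a replicate block 118 members differed with age and 83 with duration, against 116 and 82. Depth, at 5.37 to 31.0 M counts per library, limits members near 5 CPM most.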
